A study of Mus musculus with 19 samples.

Results

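The circadian output factors Dbp, Tef, Hlf, Nfil3, Bhlhe40 and Bhlhe41 were followed across C2C12 muscle cells and mouse soleus muscle on 1-colour Agilent expression arrays. They make up 6 of the 27793 gene names on the array and are read by 11 of its 41174 probes, all of which are described. The 6 genes were chosen on what these same arrays had shown in the cell comparison and in the muscle comparison, so the values of those comparisons are given as a description and without a test of the genes.

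C2C12 is a line of mouse myoblasts, the dividing precursors of muscle fibres. The C2C12 WT group (n = 6) carried the empty plasmids pIRES neo3 and pIRES hyg3, and the C2C12 HDAC4&5 group (n = 6) carried the same plasmids with human wild-type HDAC4 and HDAC5. HDAC4 and HDAC5 are class IIa histone deacetylases, which repress the MEF2 factors of muscle. Both groups were stably selected in hygromycin B and geneticin at 500 µg/ml each and were harvested 48 h after seeding. The soleus db group (n = 4) was male db/db mice on C57BL6J, with genotype db +/+ in the labels, and the soleus Con group (n = 3) was their heterozygous littermates, db -/+. The db mutation disrupts the leptin receptor in every tissue, and homozygotes become obese and diabetic. All mice were 12 weeks old and were fasted for 5 h before tissue collection. The labels give no time of day for either collection, and do not say whether the 6 arrays of a cell group came from more than 1 stable line. The study's own text counts fewer biological replicates per cell group than there are arrays, so some arrays may share a culture, and the SDs, SEs and p-values of the cells measure the spread between arrays, which may be technical. It also counts fewer muscles per group than the 4 db arrays, which the labels number as 4 mice, and does not say which it used.

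Dbp, Tef and Hlf are the PAR bZIP transcription factors. They bind the D-box, through which they switch on genes of detoxification and metabolism in a daily rhythm. Nfil3 (E4BP4) is a bZIP repressor that binds the same D-box and opposes them. Bhlhe40 (DEC1) and Bhlhe41 (DEC2, SHARP1) are basic helix-loop-helix repressors that bind E-boxes and thereby dampen the CLOCK and BMAL1 activator, and Bhlhe41 also restrains MyoD in muscle precursors. In the clock the PAR bZIP and DEC genes are themselves switched on through E-boxes, while Nfil3 is governed by the ROR and REV-ERB nuclear receptors.

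Signal is given as log2 of the processed spot intensity relative to the 75th percentile of the same array, so a value of 0 is a probe at that percentile. That percentile was an intensity of 512 to 1561 on WT arrays, 401 to 744 on HDAC4&5 arrays, 141 to 470 on Con arrays and 157 to 500 on db arrays. Replicate arrays correlated at r = 0.985 to 0.997 in the cell groups, at 0.937 to 0.975 in Con and at 0.870 to 0.982 in db. The single tested mouse Hdac5 probe was 1.44 ± 0.26 (SE) higher in HDAC4&5 cells and the Hdac4 probe differed by -0.03 ± 0.07, and it is not known whether these mouse probes read the human RNA. Markers of the labelled cell type were present in WT cells, where Myod1, Myog, Des and Cdh15 were well above background on 6 of 6 arrays. In HDAC4&5 cells Myod1 was well above background on none of 6 arrays and was at least 257-fold lower on this scale. With normexp background correction Myod1 differed by -5.51, a smaller step than that bound. The summed signal of 7 myoblast markers ranged from 0.54 to 0.75 against 6.70 to 7.69 in WT. Myf5 and Pax7 were above background on no array of either cell group. The summed signal of 8 muscle fibre markers was 4.80 to 4.98 in WT and 0.11 to 0.29 in HDAC4&5, with 5 of 7 tested lower and 1, Myh7, higher. That of 4 fibroblast markers was 2.36 to 2.59 and 4.51 to 4.63, with Col1a1 and Pdgfra higher by 3.36 and 2.20 and Dcn lower, at -1.30. The sums of adipocyte and nerve markers were also wholly higher in HDAC4&5 and that of erythrocyte markers wholly lower, at low signal in both groups. All 8 muscle fibre markers were above background on every soleus array of both groups.

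The probes lie, in the mm9 coordinates of the files, at chr7:52965265-52965324 for Dbp (A_51_P180492), chr11:90199978-90200037 for Hlf (A_51_P134228) and chr6:108616309-108616368 for Bhlhe40 (A_51_P272553). Tef on chromosome 15 has A_52_P658073, A_52_P173309, A_51_P450561 and A_52_P485573, which start at 81646554, 81651816, 81654218 and 81656928. Nfil3 is read at chr13:53062869-53062928 (A_51_P111492) and chr13:53062585-53062644 (A_52_P500027). Bhlhe41 is read at chr6:145811275-145811334 (A_51_P451176) and chr6:145812686-145812745 (A_52_P618912). No annotation of that build was used here, so the exon or UTR of each probe is not stated. The Tef probe A_52_P173309 is shown because its 60 bases cover 2106 bases of the genome and so cross an exon junction, which means that it reads spliced RNA:
Tef A_52_P173309: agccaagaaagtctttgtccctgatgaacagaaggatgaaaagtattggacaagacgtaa

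RefSeq (GRCm38.p6) gave promoter windows, from 250 bases before to 50 bases after the start, for 5 of the 6 genes, with 2 windows for Tef. Bhlhe40 had no window. The E-box CACGTG, which reads the same on both strands, was found in both Tef windows and in the Bhlhe41 window, against 7.15% of all 32851 windows of the same 300 bases. The ROR element TAGGTCA, searched on both strands, was found in the Nfil3 window only, against 2.61% of all windows. No window held the D-box TTANGTAA, which 2.32% of all windows hold, and the Dbp and Hlf windows held none of these motifs. The matching stretches are shown because they hold the letters of the E-box or ROR element, and whether the clock acts through these sites was not tested. Capitals mark the match, which is a description of the letters and not a binding site:
Tef, first window, chr15:81802496-81802601, plus strand, E-box 127 bases before the start: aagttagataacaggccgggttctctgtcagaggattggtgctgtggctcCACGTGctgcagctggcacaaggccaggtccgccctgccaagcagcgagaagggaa
Tef, second window, chr15:81811226-81811331, plus strand, E-box 138 bases before the start: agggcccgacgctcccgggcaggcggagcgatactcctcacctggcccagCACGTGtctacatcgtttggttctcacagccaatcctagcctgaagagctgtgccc
Bhlhe41, chr6:145865518-145865623, minus strand, E-box 153 bases before the start: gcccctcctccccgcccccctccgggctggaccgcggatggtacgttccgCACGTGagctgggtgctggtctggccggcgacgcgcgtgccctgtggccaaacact
Nfil3, chr13:52981040-52981101, minus strand, ROR element on the opposite strand 12 bases before the start: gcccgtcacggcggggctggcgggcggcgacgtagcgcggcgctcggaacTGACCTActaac

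In C2C12 cells, overexpression of HDAC4 and 5 went with higher signal of all 3 PAR bZIP activators and of Bhlhe40, and with lower signal of the repressors Nfil3 and Bhlhe41. The D-box activators and the D-box repressor thus lay on opposite sides. A probe entered the limma comparison where all arrays of 1 or both groups had it well above background. Of the 11 probes, 9 met that limit. Of these 9, 6 were higher and 3 were lower at an adjusted p of 0.05, beside 36.5% of all 21483 probes tested that were higher and 30.0% that were lower. The same 6 and 3 did not overlap between the groups, beside 27.3% of all probes that lay wholly higher and 22.9% wholly lower. With a background this high, and since this contrast served to choose the genes, nothing is read from these counts.

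Hlf differed most among the 6 genes. Its values had a lowest of -5.00, a median of -4.59 and a highest of -4.51 in WT, and of -1.92, -1.80 and -1.68 in HDAC4&5. The means differed by 2.85 ± 0.09 (SE), 7.21-fold, and by 1.72 with normexp background correction. Hlf was well above background on all 12 cell arrays, low in WT and without overlap between the groups.

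Dbp ran from 2.58 over a median of 2.71 to 2.99 in WT and from 4.37 over 4.39 to 4.78 in HDAC4&5. The mean rose from 2.76 ± 0.18 to 4.49 ± 0.17 (SD, n = 6 each), a difference of 1.73 ± 0.10 (SE) or 3.31-fold. Every HDAC4&5 array was above every WT array.

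The 3 tested Tef probes moved the same way by different amounts. A_51_P450561 ran from -3.24 over -2.98 to -2.80 in WT and from -1.74 over -1.56 to -1.44 in HDAC4&5, a difference of 1.44 ± 0.08 (SE). The junction probe A_52_P173309 differed by 1.53 ± 0.12 (0.99 with normexp) and A_52_P485573 by 1.08 ± 0.07. Tef, read at 3 places along the gene, was thus 2.11-fold to 2.88-fold higher. The fourth probe, A_52_P658073, was above background on none of 6 WT and 1 of 6 HDAC4&5 arrays and was not tested.

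Both Nfil3 probes were lower in HDAC4&5 cells. A_51_P111492 ran from 1.54 over 1.62 to 1.78 in WT and from 0.71 over 0.80 to 0.98 in HDAC4&5, a difference of -0.81 ± 0.06 (SE). A_52_P500027 ran from 1.69 over 1.84 to 1.96 and from 0.95 over 1.21 to 1.67, a difference of -0.62 ± 0.11. The D-box repressor was thus 1.76-fold and 1.54-fold lower by its 2 probes.

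The DEC genes went opposite ways. Bhlhe40 ran from 1.74 over 1.91 to 2.19 in WT and from 2.25 over 2.39 to 2.65 in HDAC4&5, a difference of 0.52 ± 0.09 (SE) or 1.44-fold. Bhlhe41 (A_51_P451176) ran from -0.34 over -0.29 to -0.21 and from -1.23 over -0.94 to -0.78, a difference of -0.68 ± 0.07 or 1.60-fold lower. With the deposited matrix in place of the scanner files Bhlhe40 differed by 0.32 and was no longer past the adjusted p. The second Bhlhe41 probe, A_52_P618912, was above background on 3 of 6 WT and none of 6 HDAC4&5 arrays and was not tested.

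**Figure D1:**
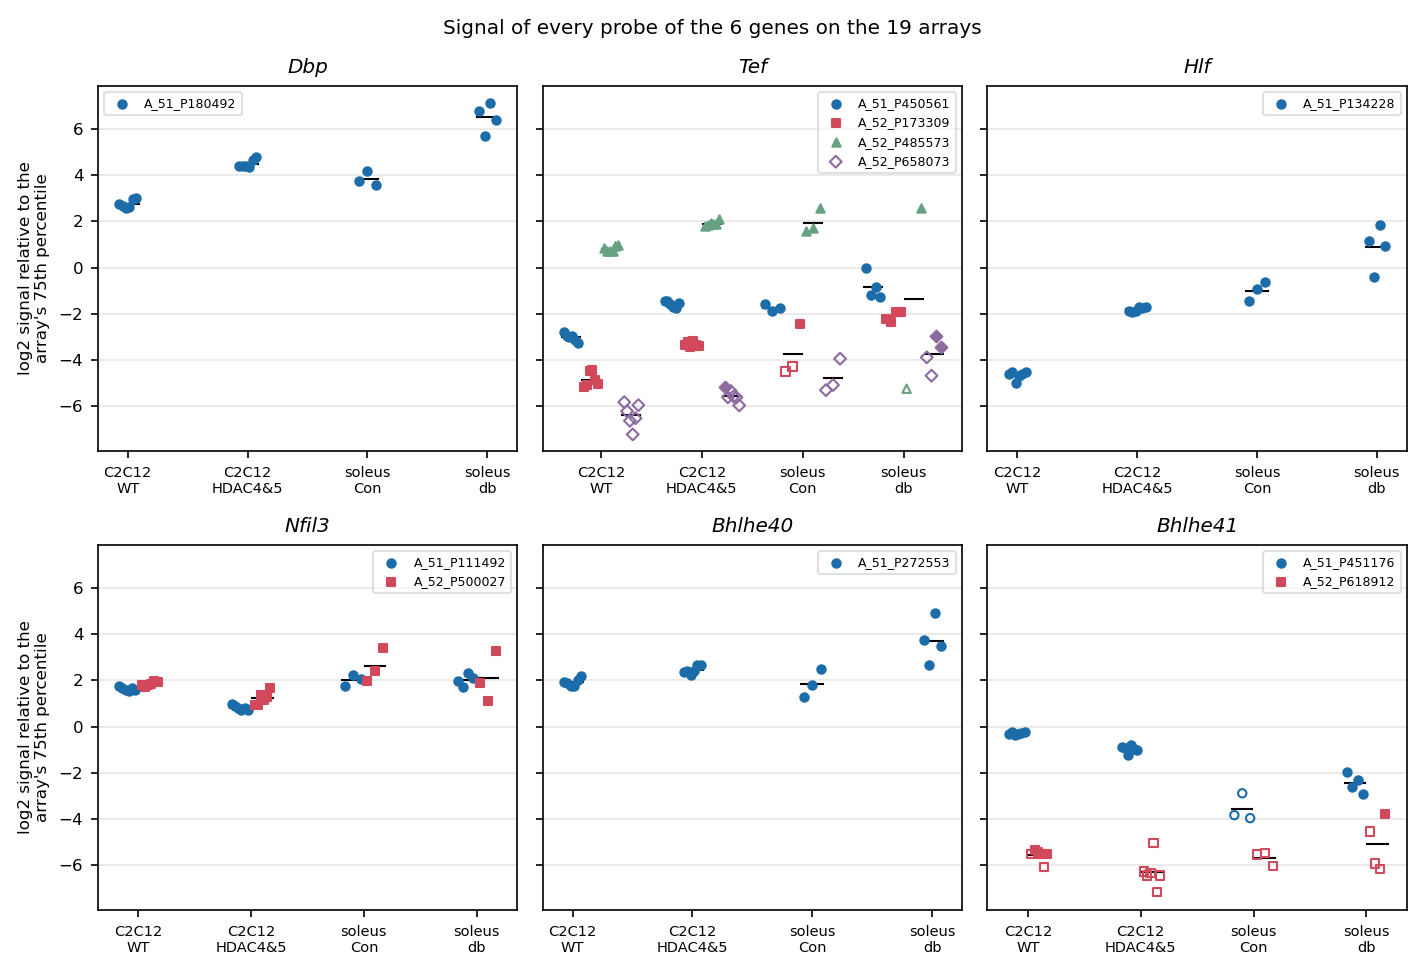
Signal of all 11 probes on the 19 arrays, as log2 relative to the array's 75th percentile (y axis), by group (x axis). Each point is 1 array, filled where the probe was well above background and open where it was not, black bars are group means, colours and shapes are probes, and spots marked as outliers are left out. The 6 HDAC4&5 values of Dbp lie between 4.37 and 4.78, above the 6 WT values, and the 4 db values lie between 5.71 and 7.13, above the 3 Con values.

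The cells were hybridised on 3 slides with 2 arrays of each group on each. Within the slides the Dbp difference was 1.68, 1.77 and 1.73, that of Hlf 2.65, 3.05 and 2.84, and that of Bhlhe41 -0.62, -0.67 and -0.75. For all 9 tested probes the direction was the same on the 3 slides. Their size moved most for the Tef junction probe, at 1.83, 1.15 and 1.60. The markers named above moved between the same groups, and their part in these differences was not tested. In bulk RNA, fewer cells of a type and less RNA per cell cannot be told apart.

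In soleus muscle, the db mice had higher signal of Dbp, Hlf, Bhlhe40 and of 2 Tef probes than Con mice, without overlap between the groups, while the Nfil3 values overlapped. No probe of the 6 genes passed the adjusted p of limma, with 9 tested, beside 0.0108% of all 18542 probes tested, which is 2 probes, and 1 with the replicate block. At an unadjusted limma p of 0.05, 1288 of all 18542 probes and 6 of the 9 passed. The Tef junction probe and Bhlhe41 A_51_P451176 entered the comparison through db alone. With a stricter filter, which asks for both groups well above background, 999 of 16025 probes and 4 of 6 passed. Of the 9, 5 lay wholly higher in db, beside 8.06% of all probes that did so, and none wholly lower, beside 2.51%. This contrast also served to choose the genes, and nothing is read from the counts.

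Dbp was 3.76, 4.17 and 3.57 in Con 1 to 3, and 6.75, 5.71, 7.13 and 6.40 in db 1 to 4. The difference was 2.66 ± 0.41 (SE), 6.33-fold, with a 95% interval of 1.73 to 3.59. The lowest db muscle was well above the highest Con muscle. The spot of db 3 was saturated, so its value is a floor, and without db 3 the difference was 2.45.

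Hlf was -1.44, -0.91 and -0.62 in Con and 1.16, -0.39, 1.83 and 0.93 in db, a difference of 1.87 ± 0.53 (SE), 3.66-fold (interval 0.66 to 3.08). The groups did not overlap, though db 2 came close to Con 3. Bhlhe40 was 1.30, 1.78 and 2.49 in Con and 3.74, 2.67, 4.93 and 3.47 in db, a difference of 1.84 ± 0.55, 3.59-fold (interval 0.58 to 3.11). For both genes, as for Dbp, db 3 was the highest and db 2 the lowest of the db muscles.

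Tef was uneven between its probes. A_51_P450561 was -1.56, -1.86 and -1.76 in Con and -0.02, -1.17, -0.85 and -1.29 in db, a difference of 0.89 ± 0.39 (SE; interval 0.01 to 1.77) with no overlap. The junction probe was -4.49, -4.27 and -2.43 in Con and -2.23, -2.34, -1.92 and -1.90 in db, a difference of 1.64 ± 0.51 (interval 0.47 to 2.81), which was 0.28 with normexp and 0.82 in the deposited matrix. Its groups did not overlap either, but only Con 3 of the Con muscles was above background, and it lay close to the db values. A_52_P485573 was 1.59, 1.69 and 2.57 in Con. In db it was -5.23 and not above background in db 1, 2.56 in db 2, and marked as an outlier in db 3 and db 4, so that the fit dropped those 2 arrays and gave -3.29 with an interval of -8.13 to 1.56. With the outlier spots kept, db 3 read 4.55 and db 4 read 3.64 and the difference was -0.53. Without db 1, which left db 2 alone, it was 0.61, and in the deposited matrix 1.82. The sign of this probe therefore turned on single spots, and db 1, low here, was the highest of the db muscles on A_51_P450561. The dim probe A_52_P658073 was above background on none of 3 Con and 2 of 4 db arrays.

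The Nfil3 values of the groups overlapped on both probes. A_51_P111492 was 1.74, 2.24 and 2.05 in Con and 1.99, 1.71, 2.32 and 2.09 in db, a difference of 0.02 ± 0.32 (SE; interval -0.71 to 0.74). A_52_P500027 was 1.99, 2.42 and 3.41 in Con and 1.89, 1.11 and 3.26 in db 1, 2 and 4, with db 3 marked as an outlier and dropped, a difference of -0.52 ± 0.64 (interval -2.0 to 0.96). That value turned on single arrays and spots, at -0.03 without db 2, -0.12 without Con 3, -1.11 without db 4, -0.16 with outlier spots kept and -0.08 in the deposited matrix. The first interval ends short of the -0.81 of that probe in the cells, and the second holds the -0.62 of its own. Whether the muscle and cell differences differ was not tested.

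Bhlhe41 was near background in soleus. A_51_P451176 was -3.82, -2.88 and -3.95 in Con, well above background on none of 3 arrays, and -1.95, -2.63, -2.30 and -2.90 in db, above it on 4 of 4. As a bound that holds only on the scale used here, it was at least 1.78-fold higher in db. For this, each Con array was set to its dimmest signal that counted as well above background. Con 2, whose own value was higher than that, kept its value. The measured values overlapped all the same, since Con 2 lay above db 4. The measured difference of 1.11 ± 0.40 (SE) was 0.24 with normexp, a smaller step than that bound. The second probe was above background on none of 3 Con and 1 of 4 db arrays.

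**Figure D2:**
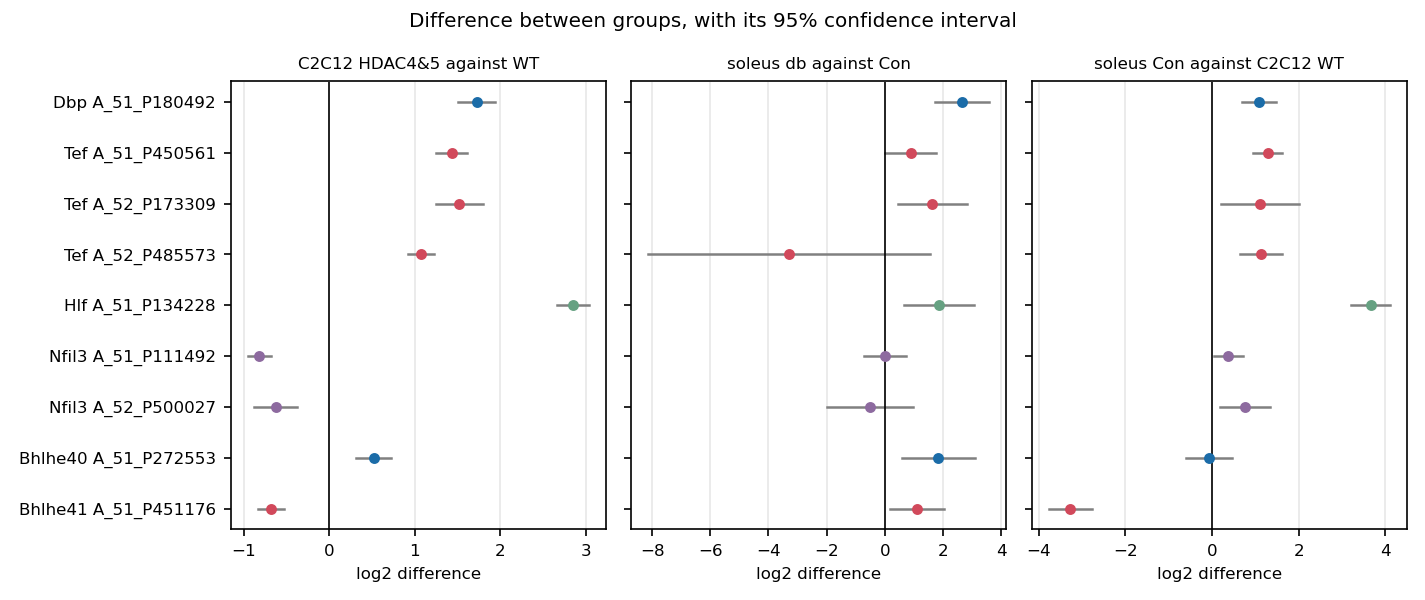
Difference between groups for the 9 tested probes, on the log2 scale (x axis, on its own scale in each panel), in the cells, in soleus and between Con soleus and WT cells. Points are differences of means and lines are 95% intervals from limma. Dbp stands at 1.73, 2.66 and 1.07 in the 3 panels, and the interval of Tef A_52_P485573 in soleus runs from -8.13 to 1.56.

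The soleus arrays lay on 2 slides, with Con 1, Con 2, db 1 and db 2 on the first and Con 3, db 3 and db 4 on the second. Dbp was higher in db by 2.26 on the first and 3.19 on the second, Hlf by 1.56 and 2.00, and Bhlhe40 by 1.66 and 1.71. The Tef probe A_51_P450561 was higher by 1.11 and 0.69 and the junction probe by 2.10 and 0.53. Nfil3 A_51_P111492 differed by -0.14 and 0.16, so its direction was not the same on the slides. Bhlhe41 A_51_P451176 differed by 1.06 and 1.35. With slide as a block in the fit, 34 probes or 0.183% of all passed, and of the 9 probes Dbp alone was among them, at a difference of 2.64 ± 0.37 (SE). Dbp lay just inside the limit there and passed the adjusted p in no other setting of this comparison. Since this contrast served to choose the genes, nothing is read from that call.

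**Figure D3:**
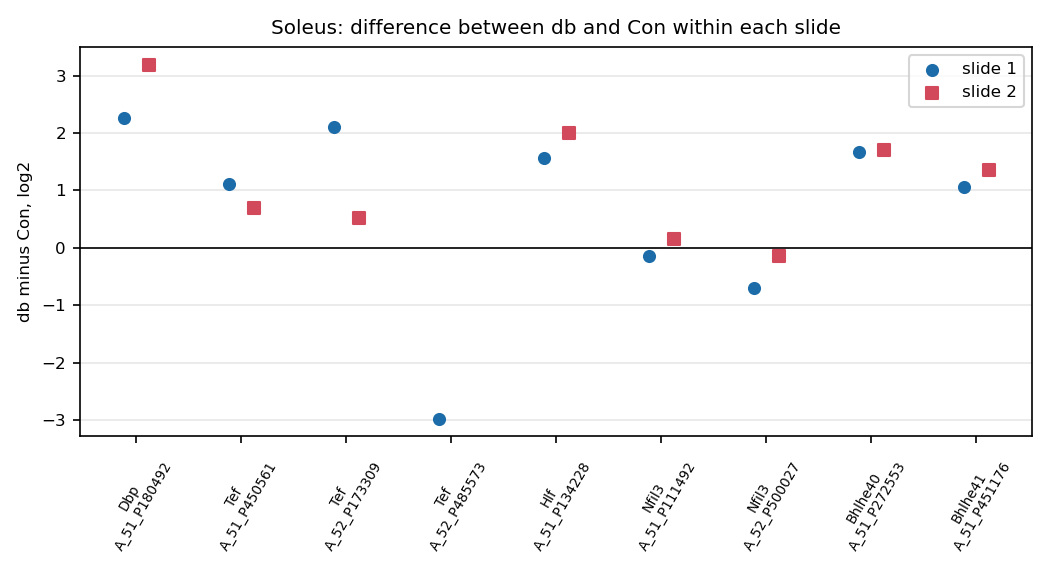
Difference between db and Con soleus within each slide (y axis, log2) for the 9 tested probes (x axis), with circles for the first slide and squares for the second. Dbp, Hlf, Bhlhe40, Bhlhe41 and the Tef probes A_51_P450561 and A_52_P173309 lie above 0 on both slides, and Tef A_52_P485573 has no value on the second slide because both db spots were marked as outliers.

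Soleus holds other cells than muscle fibres, and some of their markers also differed between the groups. Of the 6 adipocyte markers, all tested, Lep passed as higher in db (3.79, limma adjusted p = 0.0456) and none passed as lower. No probe at all passed as higher with normexp, where Lep differed by 1.96, nor with either other filter, with outlier spots kept, in the deposited matrix, with the replicate block or without any 1 of the arrays. Cidec was also wholly higher and Cfd wholly lower. The summed signal of the 6 was 8.11 to 8.89 in Con and 7.75 to 8.17 in db. The summed signal of 3 endothelial markers was 3.59 to 4.36 in Con and 2.38 to 3.49 in db, and that of 4 erythrocyte markers was 7.44 to 8.60 and 6.56 to 7.36, both wholly lower in db. No single tested marker of these lists was wholly lower or passed. They differed by -0.02 (Pecam1) to -0.93 (Kdr) and by -0.17 (Hba-a1) to -1.58 (Alas2). Macrophage, fibroblast and nerve markers overlapped between the groups, at 1.82 to 3.36 and 2.41 to 3.72, at 7.97 to 8.21 and 7.39 to 8.02, and at 1.56 to 2.01 and 1.35 to 2.71. Itgam, a macrophage marker, was above background on no soleus array. The part of these cells in the differences of the 6 genes was not tested.

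Con soleus was set against WT C2C12 cells to compare the tissue with the cell line. Its arrays are the control arms of the comparisons on which the genes were chosen, so it too is given as a description of the 6 genes. Of the 9 probes, 7 were higher and 1 was lower in soleus at a limma adjusted p of 0.05, beside 33.8% of all 22641 probes that were higher and 39.9% that were lower. The muscle and cell arrays lay on separate slides and came from separate extractions, so tissue and batch cannot be told apart. The median difference over all probes was -0.17, and it was -0.44 with quantile normalisation and 0.28 with normexp background correction.

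Hlf was higher in soleus by 3.66 ± 0.20 (SE), 12.6-fold, and by 2.48 with normexp. It was higher in 3 of 3 muscles than on any WT cell array. Dbp was higher by 1.07 ± 0.18, and the Tef probes A_51_P450561, A_52_P485573 and A_52_P173309 by 1.28 ± 0.15, 1.13 ± 0.22 and 1.11 ± 0.41. In the deposited matrix A_51_P450561 differed by 0.75. With quantile normalisation the junction probe differed by 0.09 and no longer passed, nor did it pass without Con 3, at 0.46. The 3 PAR bZIP activators were thus all higher in soleus, by at least 1 probe that passed under each of quantile, normexp and the deposited matrix.

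Nfil3 was higher in soleus by 0.38 ± 0.15 (SE) on A_51_P111492 and by 0.76 ± 0.26 on A_52_P500027. A_51_P111492 no longer passed without Con 2, at 0.26, nor without the filter on dim probes, and A_52_P500027 was 0.36 without Con 3. Neither passed with normexp, at 0.16 and 0.47, and in the deposited matrix A_51_P111492 turned to -0.11. Bhlhe40 differed by -0.07 ± 0.24, with an interval of -0.60 to 0.47. Bhlhe41 went the other way from the activators: A_51_P451176 was -0.28 in WT cells and -3.55 in Con soleus, at least 7.96-fold lower in soleus, where it was well above background on none of 3 arrays. With normexp this probe differed by -1.50, a smaller step than that bound.

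Across the 4 groups, Hlf rose in the order WT, HDAC4&5, Con and db, with no overlap between neighbours, and Dbp in the order WT, Con, HDAC4&5 and db, again with none. Tef A_51_P450561 ran in the order WT, Con, HDAC4&5 and db, and its Con values, at -1.86 to -1.56, overlapped those of HDAC4&5, at -1.74 to -1.44. Bhlhe40 ran from Con over WT and HDAC4&5 to db. Its Con values, at 1.30 to 2.49, overlapped both cell groups, and its lowest db value of 2.67 lay next to the highest HDAC4&5 value of 2.65. Nfil3 A_51_P111492 was lowest in HDAC4&5, and its WT, Con and db ranges overlapped. Bhlhe41 was highest in WT, then HDAC4&5, and its db and Con values were lowest and overlapped. These are orders of a probe's own signal across groups, and signals of different probes were not compared. Between cells and muscle they also cross slides and extractions. The nearest values there were -1.68 in HDAC4&5 and -1.44 in Con for Hlf, and 4.17 in Con and 4.37 in HDAC4&5 for Dbp. The median difference between Con and WT moved from -0.44 to 0.28 with the processing, and the orders were not tested in other settings.

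The genes of the core clock, which drive these outputs, were taken as a list of 18 with the brightest tested probe of each. In the cells 15 were tested, of which 8 were higher and 5 lower in HDAC4&5, beside 36.5% and 30.0% of all probes. Their median difference was 0.27 against 0.08 over all probes. Those that passed with a difference of at least 1 were the repressor genes Per2 (1.54 ± 0.08 SE), Cry1 (1.13 ± 0.15), Ciart (2.79 ± 0.58) and Per3 (-1.05 ± 0.08). Ciart was above background on 1 of 6 WT arrays, its groups overlapped, and it differed by 0.96 with normexp. The Per3 direction flipped with normexp, at 0.06, as did that of Rora, from -0.81 to 0.23, and that of Csnk1d flipped with quantile normalisation, from 0.27 to -0.08. Arntl, which encodes BMAL1 and peaks opposite to Dbp in clocks, was lower, at a difference of -0.85 ± 0.05, and the REV-ERB genes Nr1d1 and Nr1d2 were higher, at 0.65 ± 0.05 and 0.83 ± 0.12. Clock, the partner of BMAL1, was higher, at 0.69 ± 0.14. Cry2 was lower, at -0.39 ± 0.06 (-0.03 with normexp), and Per1 did not pass, at 0.12 ± 0.06. Arntl, Nr1d1, Nr1d2, Rora, Csnk1d, Clock, Cry2 and Per1 were named after their values were seen. The directions of Arntl, Nr1d1, Nr1d2, Per2, Cry1 and Ciart were the same with quantile and with normexp.

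In soleus 13 core clock genes were tested and none passed the limma adjusted p, with a median difference of 0.86 against 0.18 over all probes. The groups did not overlap for 5 that were higher in db and 1 that was lower, beside 8.06% and 2.51% of all probes, and those given here were named after their values were seen. The period genes Per1 and Per2 were higher by 3.16 ± 0.42 (SE) and 5.04 ± 0.71, and Per2 was above background on 1 of 3 Con and 4 of 4 db arrays and differed by 2.44 with normexp. Cry2 was higher by 1.75 ± 0.34. Nr1d1 and Nr1d2 differed by 0.91 ± 0.38 and -0.94 ± 1.70, Cry1 by -0.07 ± 0.57 and Rora by -1.30 ± 1.60, and the groups overlapped for each of these. Arntl was lower, at 2.82 in Con and 1.77 in db, a difference of -1.04 ± 0.36.

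Between Con soleus and WT cells, 9 of 15 tested core clock genes were higher in soleus and 4 lower, beside 33.8% and 39.9% of all probes, with a median of 0.71. Rora, a nuclear receptor that acts on ROR elements, was higher in soleus by 5.96 ± 0.55 (SE; limma adjusted p = 3.12e-06). Arntl was higher by 2.14, Cry1 by 1.23 (0.64 with quantile normalisation) and Cry2 by 1.19. Csnk1e, a kinase of the period proteins, was lower, at -2.41 ± 0.40, and Rorb was at least 1.93-fold lower. Rorb did not pass with normexp, at -0.17, and Per3, lower at -1.09, turned to 0.74 with it.

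**Figure D4:**
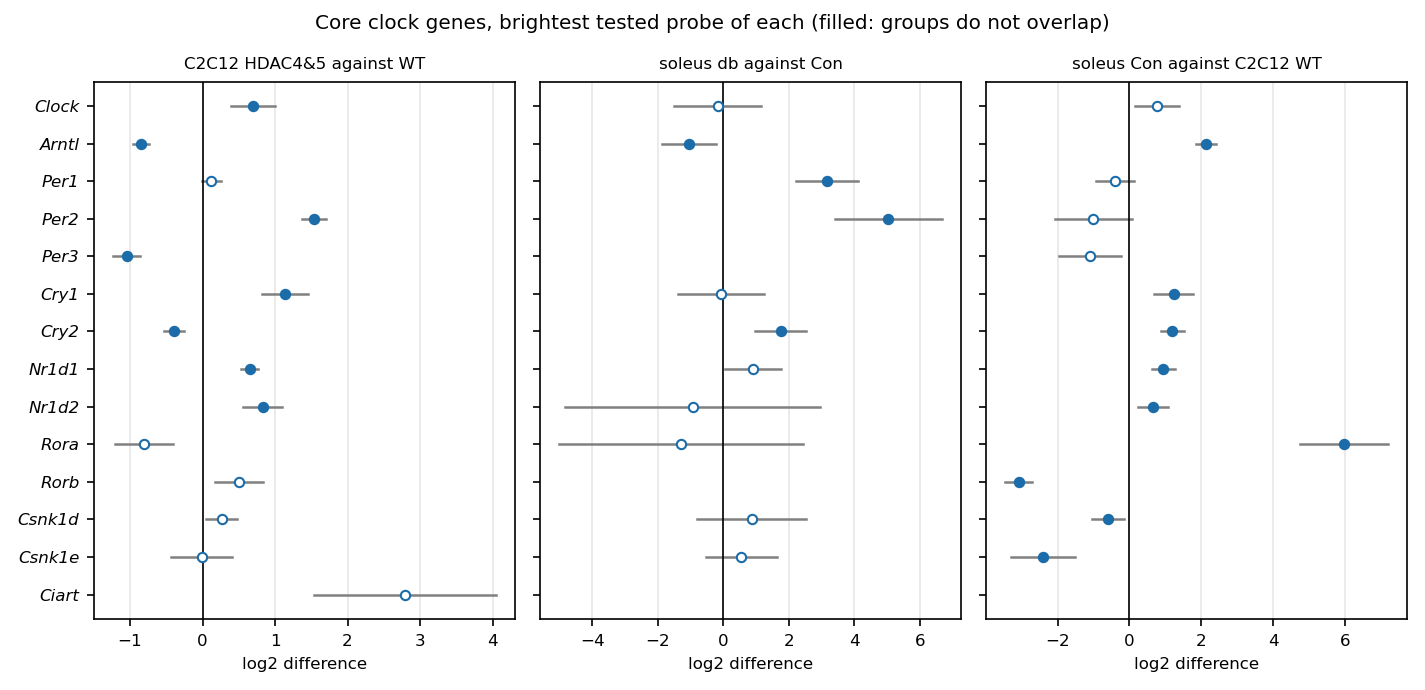
Difference between groups for the core clock genes tested and reported here (y axis), each by its brightest tested probe, on the log2 scale (x axis, on its own scale in each panel). Points are differences with 95% intervals from limma, filled where the groups did not overlap. Per2 stands at 1.54 in the cells and 5.04 in soleus, and Arntl at -0.85 and -1.04.

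A list of 9 genes known as targets of the PAR bZIP factors or of Nfil3, mostly from liver, had 4 tested in each comparison. In the cells 3 were higher in HDAC4&5 and none lower, beside 36.5% and 30.0% of all probes, with a median of 0.58. Pdxk, which makes the active form of vitamin B6, was higher by 0.86 ± 0.10 (SE), and Alas1, the first enzyme of haem synthesis, by 0.30 ± 0.07, which did not pass with normexp, at 0.16. Of 2 Cyp2b10 probes on the array, 1 was tested, and the other did not meet the limit for a test. The tested probe was above background on none of 6 WT and 6 of 6 HDAC4&5 arrays, so it entered through HDAC4&5 alone. It was at least 2.36-fold higher, though close relatives in the Cyp2b family may share its signal. With normexp it differed by 1.18, a smaller step than that bound. Por, which passes electrons to cytochrome P450 enzymes, differed by 0.13 ± 0.12 and did not pass. Those with a difference under 1 were named after their values were seen. In soleus none of 4 passed, and Pdxk, Por, Alas1 and Ppara differed by 0.58 ± 0.45, 0.59 ± 0.70, 0.22 ± 0.45 and 0.54 ± 0.39, and Alas1 turned to -0.18 with quantile normalisation. In Con soleus against WT cells, Alas1 was higher by 2.44 ± 0.22 and Ppara, a nuclear receptor of fatty acid oxidation, was at least 56.2-fold higher. With normexp Ppara differed by 3.71, a smaller step than that bound.

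The genes whose signal over the 19 arrays was most like that of each factor were sought among 19217 probes, by the root mean square difference between profiles centred on their own mean. For Dbp these were Kcnh2, Rab20 and the transcript ENSMUST00000131964, at 0.58, 0.60 and 0.61 on the log2 scale, and the Tef junction probe followed at rank 12, at 0.67. For Hlf they were Ntpcr, Acox2 and Map3k1, at 0.51, 0.57 and 0.58, and Dbp was at rank 106. For Tef A_51_P450561 they were Ermard, Tagap1 and Smad6, at 0.25 to 0.27. For Nfil3 A_51_P111492 they were Coa8, Pet100 and B3galt4, at 0.16 to 0.17, for Bhlhe40 Nfe2l2, Psmd5 and Larp1, at 0.32 to 0.34, and for Bhlhe41 Akr1c19, Prune2 and Gss, at 0.29 to 0.30. The nearest of the other 5 factors stood at rank 907 for Tef, 4588 for Nfil3, 1062 for Bhlhe40 and 8099 for Bhlhe41. The profiles share the step between cells and muscle, and the measure is a description of these arrays.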

How the data were processed

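Expression was measured on 19 arrays, 1 per sample, with 100 ng of RNA labelled with Cy3 (the labels' dye field reads biotin). Per the labels, the authors used Agilent Feature Extraction 9.5.1.1 and deposited an intensity for each spot, already corrected for background and spatial trend on its own array. They also deposited a matrix of ratio values, each the intensity over 1 constant per array, whose soleus columns were used by group only because some do not match the scanner file of the same number.

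Control spots and those that carry an outlier mark were removed, saturated spots were kept, and log2 intensity minus the array's 75th percentile was compared with limma 3.58.1 in R 4.3.3 (Python 3.11.15; package data.table at version 1.17.8), with 0.05 as the limit for p-values adjusted by Benjamini-Hochberg over all tested probes. Members and lists were chosen with earlier results of these data known. Names follow the cell files, updated through RefSeq for 27198 probes, while 13976 kept theirs. Named genes are the 6 members, core clock genes and PAR bZIP or Nfil3 targets that passed with a log2 difference of at least 1, and the 3 genes most like each member, taken from its brightest probe measured on every array, which for Tef and Nfil3 is not the brightest of all.

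Same-numbered arrays of the compared groups deviated together (r = 0.36 to 0.71 in cells, 0.42 to 0.73 in soleus), as did other numbers on the same slide (0.38 to 0.70, 0.34 to 0.80), so the numbers pair arrays through the slide. A probe above background on no array of a group gives a bound. For this, each such array is set to the dimmest signal it still counts as well above background, or keeps its own value where that is higher. The bound holds on this scale only, and the step can be smaller with normexp. The fits were tested on simulated data with known changes. Some genes of the core clock and marker lists are counted but not reported here by name. The number of arrays limits the precision.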

Additional observations from a re-analysis of the deposited data

Results flagged for a closer look

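Within groups of 4 or more arrays, 31 sets of values of the 11 probes were searched for a single array far from the rest, and 3 had one, where chance flags about 1 in 20, or 1.55 of 31. Tef A_52_P485573 was 2.09 in HDAC4&5 replicate 6, above the other 5 arrays, at 1.82 to 1.91. Hlf was -5.00 in WT replicate 3, below the other 5, at -4.68 to -4.51. The dim Bhlhe41 probe A_52_P618912 was -6.06 in WT replicate 5, below the other 5, at -5.51 to -5.33, and was not above background on every WT array.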

How the results depend on the processing

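The C2C12 count of 14293 probes fell to 9389 with 1 probe per gene, where fewer were tested, and to 8067 when 1.5-fold was also asked. In the deposited matrix 38.6% of calls were higher against 54.9%. No alternative turned a member difference in the cells, and the 9 member calls were 8 in the matrix and with 1.5-fold. With the arrays of a group on each slide averaged, an alternative chosen after seeing the data, 11573 passed, 9 of 9 member probes among them. With the replicate block 16296 probes passed in the cells and 1 in soleus, against 14293 and 2, and it changed no other call of the members. In soleus, limma called 0 probes with normexp, with the stricter filter and in the matrix (873, 999 and 1856 at an unadjusted p), 1 without a filter and 1 with outlier spots kept. Slide as a block gave 34 probes (27 of them higher), 1 of them a member, Dbp. Leaving out any single soleus array gave 0 to 1 (0 without Con 1, Con 2 or db 3, with 789, 601 and 983 at an unadjusted p). The methods' t-test gave 1464 probes and 6 member probes in soleus, and 2 and 0 after Benjamini-Hochberg. In the cells it gave 14618 and 14081, with 9 members in both, and between soleus and cells 16611 and 16110, with 8 and 7. There, 32525 probes passed without a filter against 16692, and 5 members with 1 probe per gene against 8. Higher calls were 45.8%, 58.1% with normexp and 72.2% without a filter. Nfil3 A_51_P111492 turned from 0.38 to -0.11 in the matrix. The cause of these changes was not tested beyond the number of probes tested. A member that did not pass in soleus may still differ.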
